A study of Rattus norvegicus with 6 samples.

Results

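The genes described here encode enzymes and helpers that turn newly made collagen chains into crosslinked fibrils: the lysyl oxidases Lox, Loxl1, Loxl2 and Loxl3, the lysyl hydroxylases Plod1, Plod2 and Plod3, the prolyl 4-hydroxylase alpha chain P4ha2, the collagen chaperone Serpinh1 (HSP47) and the procollagen C-proteinase enhancer Pcolce. They are picked out by gene symbol, 10 of the 29468 symbols listed in the tables. Their RNA levels were compared between rat Schwann cell precursors (SCPs) and repair Schwann cells (RSCs), 3 samples of each, by RNA-seq. The SCPs came from untreated wild type LEWIS embryos at embryonic day 14, from sciatic nerve and brachial plexus. The RSCs came from wild type LEWIS rats of 10 weeks, from the part of the sciatic nerve distal to a cut made 1 week before. Wild type is what the sample labels give. The study prepared its grafted cells from a transgenic LEWIS line and names no separate line for the RNA, so the labels are followed here. Both were dissociated with collagenase and trypsin, the adult nerve for longer and in more collagenase, and the cells were not sorted; a brief plating on bare flasks was meant to take out cells that stick, fibroblasts and macrophages among them. Stage, injury, nerve region and dissociation differ together between the groups and cannot be told apart in these samples. The study speaks of 3 sets of experiments, and how many animals went into a sample is not given in the sources used here, so the p-values measure the spread between these samples.

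Collagen is built in the endoplasmic reticulum, where prolyl 4-hydroxylase stabilises the triple helix, lysyl hydroxylases modify the lysines that later carry crosslinks and sugars, and the chaperone HSP47 holds the folded helix until export. Outside the cell the propeptides are cut off, a step that Pcolce speeds up at the C-terminal end, and lysyl oxidases convert lysine and hydroxylysine side chains to aldehydes that join neighbouring molecules in collagen and elastin. The lysyl hydroxylases differ in where they act: PLOD1 works mainly on lysines of the helix, PLOD2 on those of the telopeptides, and PLOD3 also carries glycosyltransferase activity. In peripheral nerve, fibrillar collagens are made by Schwann cells and by the fibroblasts around them.

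The values are FPKM, that is, sequenced fragments divided by transcript length and by the size of the library, which corrects for length, so levels can be compared between genes. The named transcripts of a gene were added up. The tables also list transcripts without a gene name, assembled anew in each sample, which held 26.1% to 31.9% of the FPKM in the SCPs and 18.6% to 23.4% in the RSCs. Each member is therefore also given with the unnamed transcripts of its own locus added, wherever that moved a value. Fold changes are RSC minus SCP on log2(FPKM + 1) from limma, and a gene was called at an unadjusted p under 0.01. That is the p threshold of the study, whose rule for differentially expressed genes also asks for a log2 fold change over 2. Adjusted p-values are Benjamini-Hochberg over all 13003 genes tested. The tables hold no counts, and absolute depth is unknown. Relative depth, read from the coverage that 1 FPKM stands for, was 0.933, 1.00 and 0.878 in the SCPs and 0.80, 0.841 and 0.790 in the RSCs.

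The members moved in both directions. All 10 passed the filter of a mean of at least 1 FPKM. Of these, 4 were higher in the RSCs (Lox, Plod1, Plod3 and Pcolce), 2 were higher in the SCPs (Plod2 and Serpinh1) and 4 did not pass the test (Loxl1, Loxl2, Loxl3 and P4ha2). Among all genes, 18.1% were called higher in the RSCs, 22.4% higher in the SCPs and 40.5% in either direction, so a call was common, and the members' count is read against that. The median log2 fold change of the members was 0.70, beside -0.17 over all genes tested. With unnamed transcripts added, 4 members were again higher in the RSCs, with Loxl1 in the place of Lox, and the same 2 were higher in the SCPs, where 23.2% and 34.2% of 14019 genes were called in these directions and 57.4% in either. Plod1, Plod3 and Pcolce, and Plod2 and Serpinh1 on the other side, were called both ways. The groups did not overlap for 8 members, 6 of them higher in the RSCs and 2 higher in the SCPs, beside 58.6% of all genes (24.9% and 33.7%). With unnamed transcripts added they did not overlap for 7, 5 higher in the RSCs and 2 higher in the SCPs, beside 72.4% (28.8% and 43.6%). Rescaling the samples by the median of ratios raised the median of all genes by 0.19 on the log2 scale and turned the split of calls from 2351 higher in RSCs and 2917 higher in SCPs to 2773 and 2174. Relative to the median of all genes, Plod2 was at -1.53, Serpinh1 at -0.38 and Loxl3 at -0.18, and Plod1, Plod3 and Pcolce at 2.0, 1.41 and 2.97.

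**Figure D1:**
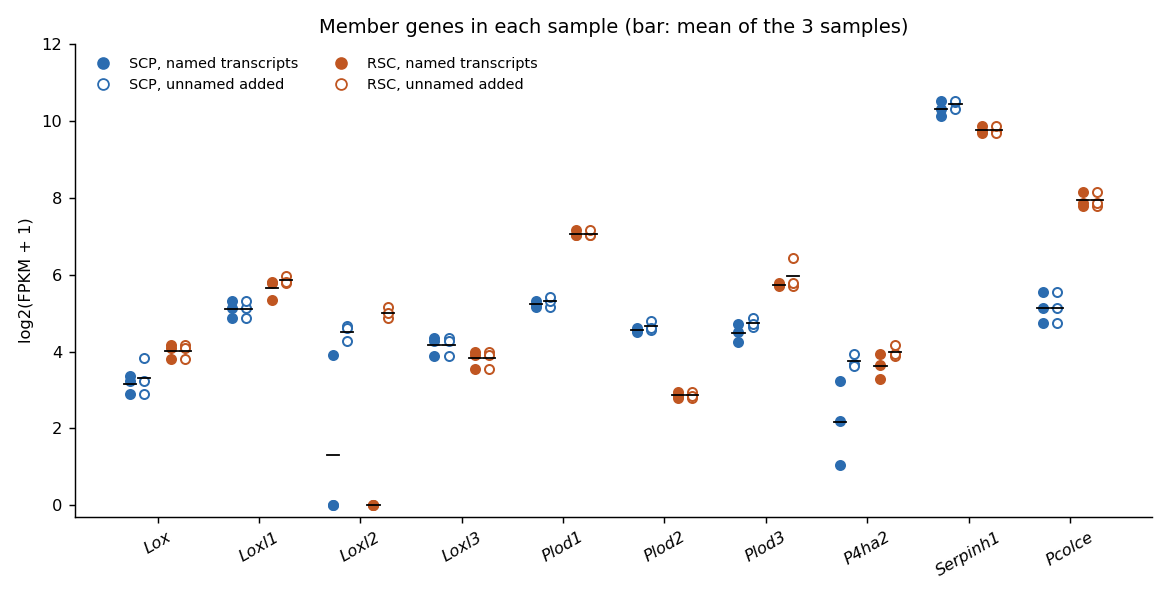
FPKM of each member in each of the 6 samples on a log2(FPKM + 1) axis, SCPs in blue and RSCs in orange, filled for named transcripts and open with unnamed transcripts added; black bars are means of the 3 samples. Serpinh1 stands far above the other members in both groups, Pcolce, Plod1 and Plod3 are separated upward in the RSCs and Plod2 downward, and Loxl2 is at 0 in most samples until the unnamed transcripts are added.

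Pcolce showed the largest change of the members. The protein binds the C-propeptide of procollagen and enhances its removal by BMP1-type proteinases. Its level (1 transcript, rn6 chr12:22153995-22160311) was 25.8, 45.6 and 34.2 FPKM in the SCPs and 220.1, 286 and 234 FPKM in the RSCs. Every RSC sample lay well above every SCP sample, and the group means differed by a factor of 7.0. The log2 fold change was 2.80 with a standard error of 0.22 (limma, adjusted p = 2.49e-04). Pcolce was the only member called at more than a 4-fold change, a rule met by 7.81% of all genes toward the RSCs and 3.78% toward the SCPs.

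Serpinh1 was the most abundant member by a wide margin, ranking 61 of 13003 genes in the SCPs and 83 in the RSCs by mean FPKM. Its product, HSP47, binds triple-helical procollagen in the endoplasmic reticulum. The single named transcript (rn6 chr1:164301010-164308306) was at 1269, 1107 and 1456 FPKM in the SCPs and at 849, 823 and 927 FPKM in the RSCs. The groups did not overlap, and the SCP mean was 1.47 times the RSC mean. The log2 fold change was -0.55 with a standard error of 0.11 (limma, adjusted p = 0.00927). An unnamed transcript of 335 FPKM in SCP sample 2 raised that sample to 1442 FPKM and the change to -0.68 (limma, adjusted p = 4.77e-04). The direction held under every setting tried, but the call did not. Under median-of-ratios scaling the change was -0.34 (limma, adjusted p = 0.0774). Under quantile normalization it was -0.28 (limma, adjusted p = 0.0443), and limma without trend gave -0.55 (adjusted p = 0.0283). None of these passed, with an unadjusted p of 0.0386, 0.0206 and 0.0116 (limma). Without SCP sample 1, RSC sample 1 or RSC sample 2 the change was -0.55, -0.54 and -0.52 and missed the threshold.

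Plod2 was the other member that was higher in the SCPs, and the only lysyl hydroxylase that was. Its 2 transcripts (rn6 chr8:99977334-100059736) summed to 22.5, 21.7 and 23.6 FPKM in the SCPs and to 5.95, 6.68 and 6.21 FPKM in the RSCs. Within each group the samples lay close together, with a coefficient of variation of 4.34% in the SCPs and 5.88% in the RSCs, and the SCP mean was 3.60 times the RSC mean. The log2 fold change was -1.70 with a standard error of 0.12 (limma, adjusted p = 1.55e-04), and -1.80 with an unnamed transcript in SCP sample 2 added, which raised that sample to 27.0 FPKM. The 2 transcripts differ by 63 bases in length (3672 and 3609 bases), and PLOD2 is known to have forms with and without an alternatively spliced exon. In a look made after the levels were known, the longer transcript held 43.4%, 48.1% and 44.5% of Plod2 FPKM in the SCPs and 50.8% in RSC sample 1, while in RSC samples 2 and 3 the shorter was listed at 0. At these low RSC levels a 0 can be an estimate that failed, so these shares are given without a test.

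Promoter sequence was taken from RefSeq (GRCr8) for 8 of the members, and Lox and Loxl2 are not covered. The stretches below are shown because Serpinh1 and Plod2, the 2 members higher in the SCPs, were also the 2 of these 8 whose last 250 bases before the annotated start hold the heat shock element pattern. This pattern, which heat shock factors bind, is a run of 3 units, GAA and its reverse complement in turn, with 2 free bases between units, searched on both strands. It stood in 222 of 33469 promoters, 0.663%. The search covered 9 patterns and was made after the expression values were known. Both sequences are upstream bases only, read 5′ to 3′ along the gene. Capitals mark the pattern and, in Plod2, also ACGTG, the core of the hypoxia response element, here on the other strand.
Serpinh1, GRCr8 chr1:163062977-163063086, minus strand: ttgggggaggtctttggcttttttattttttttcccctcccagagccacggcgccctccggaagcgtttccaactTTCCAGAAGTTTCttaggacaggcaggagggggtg
Plod2, GRCr8 chr8:101964068-101964197, plus strand: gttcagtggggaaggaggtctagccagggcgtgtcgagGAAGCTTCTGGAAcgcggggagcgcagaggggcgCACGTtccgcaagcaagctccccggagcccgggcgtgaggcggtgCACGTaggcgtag
The match in Serpinh1 spans bases 35 to 23 before the start, and that in Plod2 bases 212 to 200. Counted on both strands, ACGTG stood in 16.6% of all promoters and among the members in Plod2 and P4ha2, with 2 places in each. The first 2 units of the heat shock pattern alone, which lie inside the longer pattern, stood in 7.48% of promoters and in Plod2, P4ha2 and Serpinh1. The string CCACG (27.2% of promoters), which can overlap ACGTG by its reverse complement, was in 6 of the 8, and so was GGGCGG, the core bound by SP1 (30.5%). None of the 8 held the TATA box string TATAAA (12.9%), the CCAAT box (34.0%), the AP-1 site TGACTCA (4.05%) or the unfolded protein response element TGACGTGG (0.52%). These matches describe letters in a window and say nothing of what binds there.

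The remaining lysyl hydroxylases rose in the RSCs. Plod1 (1 transcript, rn6 chr5:164720629-164747071) was at 35.0, 38.9 and 36.0 FPKM in the SCPs and at 129.9, 128.8 and 141 FPKM in the RSCs. The lowest RSC value was over 3 times the highest SCP value, and the means differed 3.64-fold, or 1.84 on the log2 scale with a standard error of 0.08 (limma, adjusted p = 3.84e-05). An unnamed transcript raised SCP sample 3 to 41.8 FPKM, and the change was then 1.77 (limma, adjusted p = 1.26e-05). Plod3 (1 transcript, rn6 chr12:22716421-22726982) was at 18.1, 21.9 and 25.2 FPKM in the SCPs and at 51.4, 51.7 and 53.9 FPKM in the RSCs. Its log2 fold change was 1.24 with a standard error of 0.14 (limma, adjusted p = 8.25e-04), and the groups did not overlap. Counting unnamed transcripts, the SCPs were at 24.1, 28.2 and 25.2 FPKM and the RSCs at 51.4, 85.7 and 53.9 FPKM, where RSC sample 2 gained a fragment of 904 bases, and the change was 1.23 (limma, adjusted p = 0.00173). Plod1 and Plod3 changed in the same direction under every setting tried, with log2 fold changes between 1.70 and 2.05 and between 1.00 and 1.45, and stayed past the threshold in each.

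The make-up of lysyl hydroxylase RNA differed between the groups. Plod2 made up 29.8%, 26.3% and 27.8% of the FPKM of the 3 genes in the SCPs and 3.18%, 3.57% and 3.09% in the RSCs. Plod1 made up 45.3% ± 2.51 (SD, n = 3) in the SCPs and 69.4% ± 0.669 (SD, n = 3) in the RSCs, and Plod3 26.7% ± 2.91 and 27.3% ± 0.452. The Plod1 and Plod2 shares did not overlap between groups, and with 3 samples against 3 the exact permutation test cannot go below p = 0.10, the value both gave (two-sided; 0.138 after adjustment over 11 shares). For the Plod3 share the exact p was 0.70. With unnamed transcripts added, the Plod2 share was 27.5% in the SCPs and 3.09% in the RSCs. With the highest transcript of each gene in place of the sum, the Plod2 difference shrank from -24.7 to -14.8 percentage points. The Plod1 difference then went from 24.1 to 17.9 points and that of Plod3 from 0.557 to -3.16. The summed FPKM of the 3 genes was 75.5, 82.5 and 84.9 in the SCPs and 187, 187 and 201 in the RSCs, so the sum rose while the Plod2 level fell. These shares and the ratios to collagen further on are formed within a sample and do not depend on scaling between samples.

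**Figure D2:**
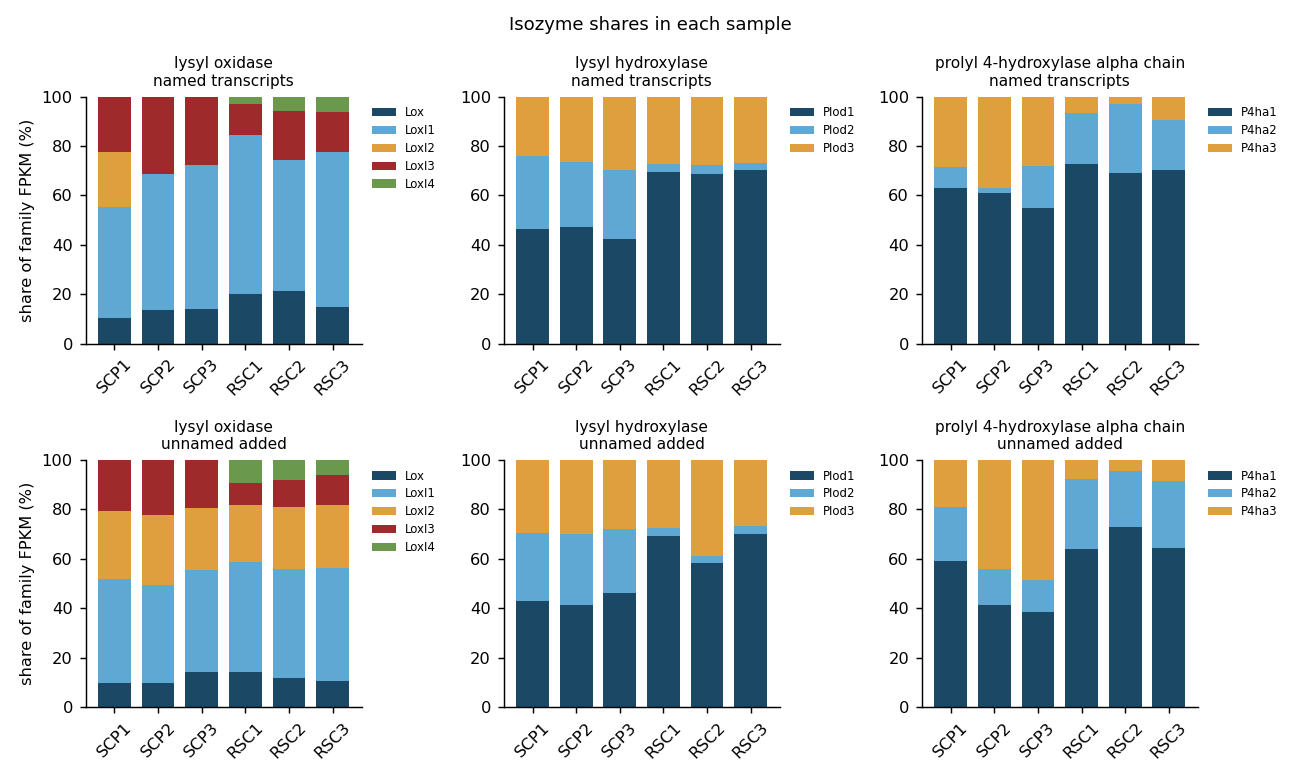
Share of each isozyme in the summed FPKM of its family, in percent, 1 bar per sample, for lysyl oxidases, lysyl hydroxylases and prolyl 4-hydroxylase alpha chains, from named transcripts (top) and with unnamed transcripts added (bottom). In the top row the Plod2 part shrinks from 26.3% or more in every SCP sample to 3.57% or less in every RSC sample, and in both rows P4ha3 and Loxl3 take smaller parts in the RSCs; the Loxl2 part is missing from 5 samples in the top row.

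P4ha2 encodes an alternative catalytic alpha chain of prolyl 4-hydroxylase. Its 4 named transcripts (rn6 chr10:39435227-39464134) summed to 3.56, 1.08 and 8.40 FPKM in the SCPs and 8.75, 14.3 and 11.6 FPKM in the RSCs. The groups lay side by side without overlap, the SCP samples scattered widely, and the log2 fold change of 1.46 missed the threshold (standard error 0.56; limma, adjusted p = 0.0766). With unnamed transcripts added the samples were at 14.2, 11.8 and 11.3 FPKM in the SCPs and 13.8, 14.3 and 16.9 FPKM in the RSCs. Then the groups overlapped and the log2 fold change was 0.25, with a 95% interval from -0.07 to 0.57. An unnamed transcript of 8.28 FPKM in SCP sample 1, 406 bases at a separate locus within the gene, was not added; with it that sample would be at 22.5 FPKM and the means at 15.2 FPKM in the SCPs and 15.0 FPKM in the RSCs. Without SCP sample 3 the change from named transcripts was 2.0 (limma, adjusted p = 0.0167) and passed, and without SCP sample 2 it was 0.91 (limma, adjusted p = 0.124).

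Lox, the founding member of the lysyl oxidases, was low in the SCPs and higher in the RSCs. Its 4 transcripts (rn6 chr18:47500320-47577819) summed to 6.42, 8.35 and 9.38 FPKM in the SCPs and to 17.1, 16.0 and 12.9 FPKM in the RSCs, with 1 of them at 0 and with the status of too little data in all 6 samples. The groups did not overlap, and the log2 fold change was 0.86 with a standard error of 0.19 (limma, adjusted p = 0.0120). An unnamed transcript of 3.79 FPKM raised SCP sample 3 to 13.2 FPKM, above the lowest RSC sample. The change was then 0.71 and no longer passed (limma, unadjusted p = 0.0277, adjusted p = 0.0424). Without SCP sample 2, RSC sample 1 or RSC sample 2 the change was 0.89, 0.78 and 0.82, none of which passed.

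Loxl1, which is best known for its part in elastic fibre assembly, was the most abundant lysyl oxidase in every sample, leaving aside a transcript near Loxl2 in SCP sample 1 that is described with that gene. It was at 28.2, 34.2 and 38.6 FPKM in the SCPs and at 54.5, 39.4 and 54.7 FPKM in the RSCs (1 transcript, rn6 chr8:63067757-63092124; Cufflinks gave the status of too little data in RSC sample 1). RSC sample 2 was only just above the highest SCP sample, and the log2 fold change of 0.54 missed the threshold (standard error 0.18; limma, adjusted p = 0.0515). That sample holds an unnamed fragment of 873 bases at 21.7 FPKM. With it the sample was at 61.1 FPKM and the change of 0.75 passed (limma, adjusted p = 0.00220). Without RSC sample 2 the change from named transcripts was 0.69 and passed (limma, adjusted p = 0.0240).

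Loxl2, which acts on basement membrane collagen IV and fibrillar collagens, could not be read from its named transcript. That transcript (2194 bases, rn6 chr15:51276022-51365238) was listed at 13.9 FPKM in SCP sample 1 and at 0 in the other 5 samples, with the status of too little data in all 6. Unnamed transcripts of about the same span but longer, such as 4365 bases in SCP sample 2 and 4416 bases in RSC sample 2, covered the locus in every sample. With these added, Loxl2 was at 18.2, 24.3 and 23.6 FPKM in the SCPs and at 28.2, 34.5 and 30.9 FPKM in the RSCs. The groups did not overlap, and the log2 fold change was 0.49 with a standard error of 0.14 (limma, unadjusted p = 0.0113, adjusted p = 0.0194), just short of the threshold. The named transcript alone gave -1.30 (limma, adjusted p = 0.373), a value set by that 1 sample. In SCP sample 1 a further unnamed transcript of 14.4 FPKM overlapped the last 205 bases of the gene at a separate locus and was not added; with it that sample would be at 32.6 FPKM and the groups would overlap, with means of 26.8 and 31.2 FPKM.

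Loxl3, a lysyl oxidase close to Loxl2 in domain structure, had a lower mean in the RSCs, in a difference that did not pass. Its samples were at 13.9, 19.3 and 18.3 FPKM in the SCPs and at 10.7, 14.9 and 14.1 FPKM in the RSCs (2 transcripts, rn6 chr4:113866848-113883713). The groups overlapped, and the log2 fold change of -0.35 had a 95% interval from -0.81 to 0.12 (limma, adjusted p = 0.182). Unnamed transcripts at a separate locus, which overlap only the last 43 to 99 bases of the gene, were not added: 8.08 FPKM in SCP sample 1, 11.2 and 8.90 FPKM in RSC sample 1, 6.54 FPKM in RSC sample 2 and 9.52 FPKM in RSC sample 3. Counted in, they would turn the order of the means, to 19.8 FPKM in the SCPs and 25.3 FPKM in the RSCs, so the direction and the Loxl3 share rest on leaving them out. As a share of the lysyl oxidase family, with Loxl4 included and unnamed transcripts added, Loxl3 made up 20.8%, 22.4% and 19.5% in the SCPs and 8.79%, 10.8% and 11.7% in the RSCs, without overlap. Loxl1 made up 41.1% ± 1.30 (SD, n = 3) in the SCPs and 44.8% ± 0.630 (SD, n = 3) in the RSCs, and Loxl2 26.9% ± 1.54 and 24.6% ± 1.33. The exact permutation p was 0.10 for the Loxl3 and Loxl1 shares and 0.20 for Loxl2 (two-sided, smallest possible 0.10). From named transcripts the Loxl1 share was 52.9% ± 6.89 (SD, n = 3) in the SCPs and 59.9% ± 6.22 (SD, n = 3) in the RSCs. Those values overlapped, with an exact permutation p of 0.30. All shares of this family leave out the transcripts at separate loci near Loxl2 and Loxl3, and were not computed with them. The summed FPKM of the family, read in this way, was 66.6, 86.2 and 93.6 in the SCPs and 122, 138 and 120.2 in the RSCs.

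**Figure D3:**
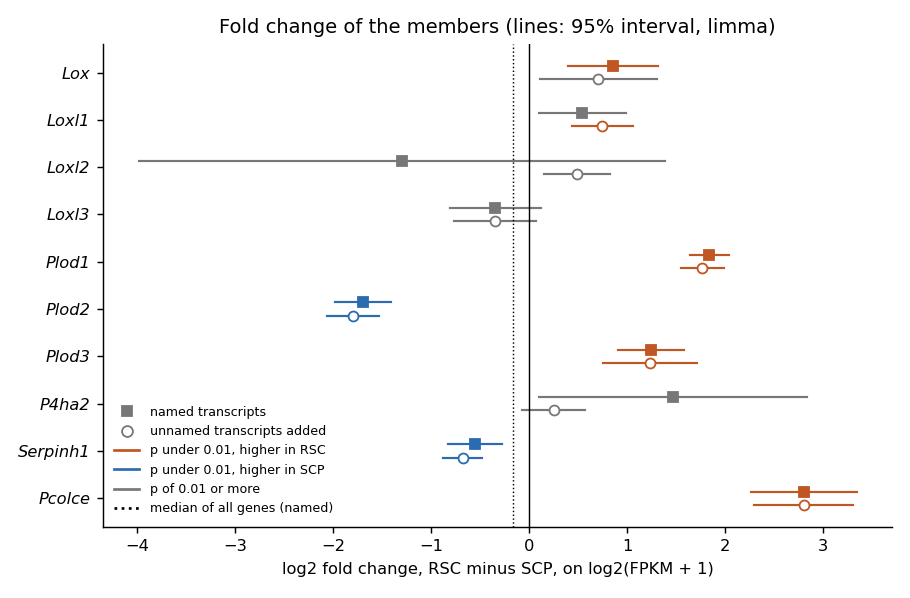
Log2 fold change of each member, RSC minus SCP, on log2(FPKM + 1), with 95% intervals from limma, squares for named transcripts and circles with unnamed transcripts added; orange and blue mark p under 0.01 in the RSC and the SCP direction, grey marks the rest, and the dotted line is the median of all genes at -0.17. Plod1, Plod3 and Pcolce lie to the right and Plod2 and Serpinh1 to the left both ways, and the Loxl2 interval narrows and changes side.

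Of the other genes of collagen modification, a list of 25 found in the tables under current or older symbols, 23 passed the filter. Of these, 10 were higher in the RSCs, 2 were higher in the SCPs and 11 did not pass, with a median log2 fold change of 0.45, where 18.1% and 22.4% of all genes were called in these directions. With unnamed transcripts added the counts were 11, 3 and 9, beside 23.2% and 34.2% of all genes. Tll1 and Tll2, proteinases of the BMP1 group, were under the filter, with means of at most 0.865 FPKM in either group.

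Among the genes of propeptide removal, where Pcolce belongs, the N-proteinases went in both directions. Adamts2 was at 0.553, 0 and 0 FPKM in the SCPs and at 54.8, 67.9 and 61.1 FPKM in the RSCs, which is 5.74 on the log2 scale (standard error 0.23; limma, adjusted p = 3.00e-05). Unnamed transcripts raised the SCPs to 2.23, 4.47 and 2.74 FPKM, and the change was then 4.44. Adamts14, another N-proteinase, rose by 2.41 on the log2 scale (limma, adjusted p = 3.67e-04). Adamts3 went the other way, with means of 3.51 FPKM in the SCPs and 0.165 FPKM in the RSCs, and passed only with unnamed transcripts added, at -2.64 (limma, adjusted p = 6.73e-04). Bmp1, the C-proteinase that Pcolce assists, was at 25.7 ± 5.25 FPKM (SD, n = 3) in the SCPs and 35.4 ± 5.61 FPKM (SD, n = 3) in the RSCs, and its change of 0.45 did not pass (95% interval from -0.01 to 0.91). With unnamed transcripts the Bmp1 change was -0.15, with an interval from -0.36 to 0.06, beside 2.80 for Pcolce.

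The other prolyl 4-hydroxylase genes gave a further contrast between isozymes. P4ha3, an alpha chain gene, was at 12.5, 18.7 and 14.2 FPKM in the SCPs and at 2.85, 1.57 and 5.36 FPKM in the RSCs, a log2 fold change of -2.0 (standard error 0.36; limma, adjusted p = 0.00592). P4ha1, the main alpha chain, was at 28.7 and 35.5 FPKM on average, and its change of 0.29 did not pass (limma, adjusted p = 0.0966). P4hb, the beta subunit and a disulfide isomerase, rose by 0.53 from 359 to 518 FPKM (limma, adjusted p = 0.00418). P4ha2 made up 8.17%, 2.15% and 16.7% of the alpha chain FPKM in the SCPs and 20.5%, 27.8% and 20.3% in the RSCs, and P4ha3 31.3% ± 4.98 (SD, n = 3) and 6.39% ± 3.19 (SD, n = 3). Neither pair of groups overlapped, with an exact permutation p of 0.10 for each. Unnamed transcripts brought the P4ha2 share to 21.7%, 14.5% and 13.1% in the SCPs and 28.4%, 22.7% and 27.1% in the RSCs. That separation rests on leaving out the transcript of 8.28 FPKM described above, with which SCP sample 1 would be at 30.5%, above every RSC sample. They raised P4ha3 in the SCPs to 12.5, 35.8 and 42.0 FPKM and in the RSCs to 3.66, 2.82 and 5.36 FPKM, a change of -2.52 (limma, adjusted p = 0.00273). The sum over the 3 alpha chain genes was 43.6, 50.5 and 50.3 FPKM in the SCPs and 42.6, 51.4 and 57.0 FPKM in the RSCs, overlapping. Unnamed transcripts brought the sum to 65.4, 81.4 and 86.4 FPKM in the SCPs and to 48.5, 63.0 and 62.3 FPKM in the RSCs, where every RSC sample lay below every SCP sample; the sum was not tested.

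Crosslinking genes outside the members both rose. Loxl4 was listed at 0 in all 3 SCP samples and at 2.56, 4.30 and 5.37 FPKM in the RSCs, and with unnamed transcripts at 11.4, 11.3 and 7.53 FPKM in the RSCs and again at 0 in the SCPs. Tgm2, a transglutaminase that links glutamine to lysine, was at 9.96 ± 3.76 FPKM (SD, n = 3) in the SCPs and 54.3 ± 9.89 FPKM (SD, n = 3) in the RSCs, a log2 fold change of 2.38 (limma, adjusted p = 0.00121).

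In folding and export, Creb3l1, a transcription factor of the secretory pathway in collagen-making cells, rose from 6.09 to 33.7 FPKM (log2 fold change 2.32; limma, adjusted p = 5.50e-04). The collagen isomerases Fkbp14 and Fkbp10 rose by 1.67 and 0.48 (limma, adjusted p = 0.00131 and 0.00821). Fkbp7, Tmem38b and Mia3 did not pass, at 0.82, -0.34 and -0.61, and Mia3 was at 0.48 with unnamed transcripts added, again without passing. In the prolyl 3-hydroxylase complex Crtap rose by 0.40 (limma, adjusted p = 0.0138), while Lepre1, Leprel2 and Leprel4 lay between 0.01 and 0.11 and did not pass. Leprel1 at 0.53 and Ppib at -0.29 did not pass either, and Leprel1 passed with unnamed transcripts added, at 0.66 (limma, adjusted p = 0.0127). Of the glycosyltransferases that add galactose to the hydroxylysines made by the lysyl hydroxylases, Colgalt1 rose by 0.67 (limma, adjusted p = 0.0104) and Colgalt2 fell by 1.07 (limma, adjusted p = 0.00836), from a low 2.04 to 0.451 FPKM. Unnamed transcripts raised its SCP mean to 5.96 FPKM and took the change to -2.27.

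**Figure D4:**
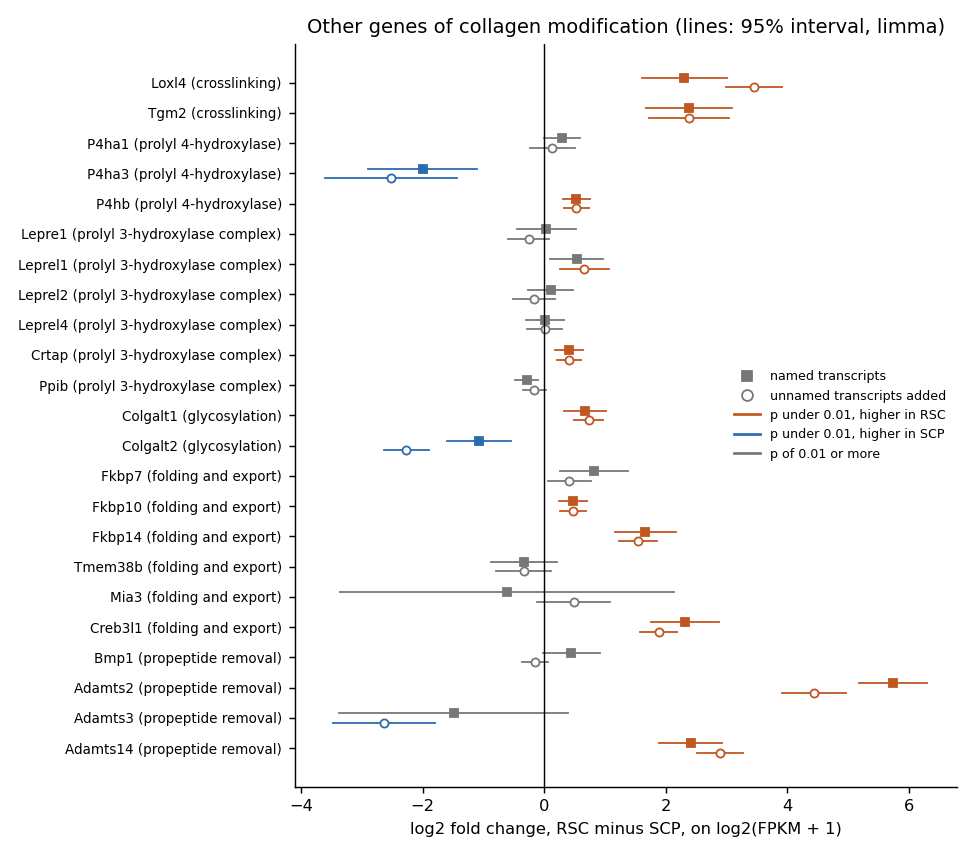
Log2 fold change, RSC minus SCP, on log2(FPKM + 1), of the 23 other genes of collagen modification that passed the filter, each with its role, with 95% intervals from limma, squares for named transcripts and circles with unnamed transcripts added; orange and blue mark p under 0.01 in the RSC and the SCP direction. Adamts2 stands furthest to the right at 5.74 and P4ha3 and Colgalt2 lie to the left, while Lepre1, Leprel2 and Leprel4 lie near 0 from named transcripts.

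The RNAs of the proteins that these enzymes act on changed as well. Of 14 fibrillar collagen and elastic fibre genes, 8 were higher in the RSCs and 2 were higher in the SCPs, beside 18.1% and 22.4% of all genes. The counts became 7 and 2 once unnamed transcripts were added, beside 23.2% and 34.2%. Col1a1 was at 80.0, 194 and 226 FPKM in the SCPs and at 1614, 2076 and 1628 FPKM in the RSCs, higher by 3.52 on the log2 scale (limma, adjusted p = 9.41e-04). Col1a2 and Col3a1 rose by 2.29 and 1.96, Col5a1 by 1.06 and Col11a1 by 0.75. Among elastic fibre genes, Fbln5 rose by 3.04, Fbn1 by 2.02 and Efemp2, which helps bring Lox to elastin, by 1.01. Efemp2 did not pass with unnamed transcripts added, at 0.66 (limma, unadjusted p = 0.0111, adjusted p = 0.0191). Eln itself did not pass, at 0.20 with an interval from -1.22 to 1.61. The 2 that fell were Col2a1, the collagen of cartilage, from 82.5 to 0.377 FPKM, and Fbn2, the fibrillin of development, from 22.5 to 0.813 FPKM. Unnamed transcripts raised the Fbn2 means to 82.7 and 12.7 FPKM, a log2 fold change of -2.58. Col5a2, Col5a3 and Col11a2 did not pass.

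Set against collagen RNA, most members were lower in the RSCs, where the summed FPKM of Col1a1, Col1a2, Col3a1, Col5a1 and Col5a2 was 5.09-fold higher. Any gene that rose less than this sum has a lower ratio, so a lower ratio alone does not set the members apart. Of all genes, 7.81% were called at more than a 4-fold rise toward the RSCs. The share of all genes with a lower ratio was not computed. That sum was 722, 929 and 1061 FPKM in the SCPs and 4105, 5234 and 4371 FPKM in the RSCs. Per 100 FPKM of these collagens, Serpinh1 stood at 176, 119 and 137 FPKM in the SCPs and at 20.7, 15.7 and 21.2 FPKM in the RSCs, 7.47-fold lower by geometric means. Plod2 stood at 3.11, 2.33 and 2.23 in the SCPs and at 0.145, 0.128 and 0.142 in the RSCs, 18.3-fold lower. Plod1, although its level rose, was 1.40-fold lower per collagen FPKM, at 4.85, 4.19 and 3.40 in the SCPs and 3.16, 2.46 and 3.23 in the RSCs.

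Pcolce was the only member whose ratio to collagen was higher in the RSCs, at 3.58, 4.91 and 3.22 per 100 FPKM in the SCPs and 5.36, 5.46 and 5.35 in the RSCs, 1.40-fold. The ratios of Lox, Loxl1, Loxl3 and Plod3 were 2.66-fold, 3.47-fold, 6.58-fold and 2.09-fold lower in the RSCs, with no overlap between groups. With the left-out transcripts near Loxl3 counted in, its ratio would be 3.92-fold lower, again without overlap. Loxl2, read with unnamed transcripts, was 3.48-fold lower, again without overlap. The P4ha2 ratio overlapped between groups (exact permutation p = 0.60) and with unnamed transcripts was 4.12-fold lower without overlap. Each ratio without overlap gave the smallest exact permutation p for 3 against 3, 0.10 (two-sided), which cannot reach 0.05. Adjusted, it was 0.109 over 12 values from named transcripts and 0.10 over 13 values with unnamed transcripts added. All these ratios share the collagen sum as denominator and are not independent of each other.

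**Figure D5:**
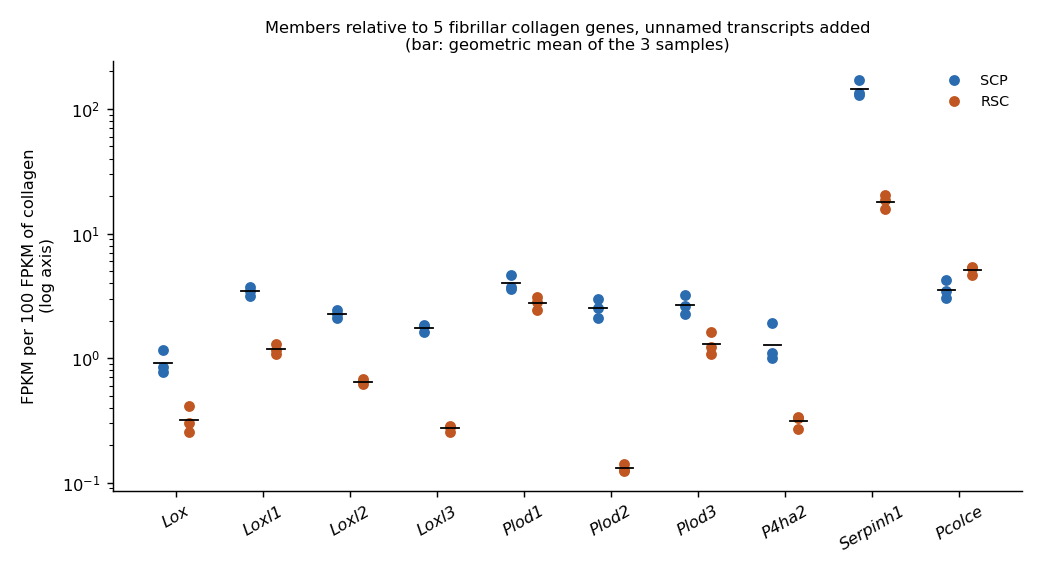
FPKM of each member per 100 FPKM of the summed collagens Col1a1, Col1a2, Col3a1, Col5a1 and Col5a2 in each sample, on a log axis, with unnamed transcripts added; SCPs in blue, RSCs in orange, bars at geometric means of the 3 samples. Every member but Pcolce lies lower in all RSC samples than in all SCP samples, Plod2 by the most at 19.2-fold. A gene that rose less than the collagen sum lies lower on this scale, and the share of all genes that do was not computed.

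These are bulk preparations, in which fewer cells of a type and less RNA per cell cannot be told apart, and markers of other cells moved with the groups. Among the Schwann cell markers, the defining gene Sox10 was at 179, 175 and 181 FPKM in the SCPs and at 149, 143 and 143 FPKM in the RSCs. The study also labeled cultured cells of both preparations for Sox10 protein and found most of them positive. S100b was at 3.21, 11.7 and 19.3 FPKM in the SCPs and at 924, 782 and 843 FPKM in the RSCs. The Schwann cell list summed to 451, 453 and 511 FPKM in the SCPs and 2395, 1873 and 2306 FPKM in the RSCs, Ngfr its most abundant gene by the mean over all 6 samples, the measure used for each list here, with 3 of 7 tested genes higher in the RSCs and 1 higher in the SCPs. With unnamed transcripts added, 6 of 8 tested genes of this list were higher in the RSCs and 1 was higher in the SCPs.

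Fibroblast markers, of which Col1a1, Col1a2 and Col3a1 are also substrates above, were higher in the RSCs for 7 of 8 genes, and summed to 642, 915 and 1026 FPKM in the SCPs and to 5385, 8067 and 6814 FPKM in the RSCs. Dcn, the most abundant over all samples, was at 8.60, 14.9 and 23.9 FPKM in the SCPs and 1175, 2697 and 2308 FPKM in the RSCs, and an unnamed transcript raised RSC sample 1 to 2744 FPKM. In the SCPs Col3a1 was the most abundant, at 286, 392 and 379 FPKM, and Pdgfra was at 47.0, 43.7 and 41.7 FPKM in the SCPs and 47.6, 61.3 and 50.6 FPKM in the RSCs. Macrophage and leukocyte markers were higher in the RSCs for 6 of 6 genes and summed to 5.32, 14.2 and 23.3 FPKM in the SCPs and 1924, 2203 and 2282 FPKM in the RSCs, with Lyz2 the most abundant. Skeletal muscle markers summed to 52.7, 94.1 and 215 FPKM in the SCPs and to at most 28.7 FPKM in the RSCs, with Myod1 at 0 in all RSCs and 4 of 5 genes higher in the SCPs. Actc1 was the most abundant of them in the SCPs, at 23.9, 51.5 and 125 FPKM. The exception was Des, which is not confined to skeletal muscle, at 6.03, 8.73 and 13.3 FPKM in the SCPs and 28.0, 23.1 and 23.0 FPKM in the RSCs, higher there and nearly all of the RSC sum. Cartilage markers summed to 62.0, 89.4 and 108 FPKM in the SCPs, nearly all of it Col2a1, and to at most 7.42 FPKM in the RSCs, with Matn1 at 0 in all RSCs, and of the 2 tested Col2a1 was higher in the SCPs and Sox9 in the RSCs. Sox9 did not pass with unnamed transcripts added, which raised SCP sample 1 from 3.28 to 4.51 FPKM.

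Perineurial markers summed to 27.2 to 37.1 FPKM in the SCPs and 75.6 to 89.6 FPKM in the RSCs, Slc2a1 the most abundant, with 2 of 3 higher in the RSCs and Krt19 higher in the SCPs. Mural markers, with Acta2 the most abundant, summed to 71.8 to 242 FPKM in the SCPs and 102 to 170.1 FPKM in the RSCs, with 1 of 3 tested higher in the RSCs. The named transcripts of Rgs5, a pericyte marker, were at 0 in all RSCs, but with unnamed transcripts added Rgs5 was at 4.98, 9.99 and 5.28 FPKM in the SCPs and at 98.4, 79.9 and 75.3 FPKM in the RSCs. The mural sums were then 75.3 to 256 and 248 to 275 FPKM, with 2 of 4 higher in the RSCs and 1 higher in the SCPs. Neuronal markers summed to 26.1 to 39.9 FPKM in the SCPs and 17.4 to 23.9 FPKM in the RSCs, with Tubb3 the most abundant and Elavl4 at 0 in all RSCs, and 2 of 3 were higher in the SCPs. Endothelial markers, with Pecam1 the most abundant over all samples and Cdh5 above it in RSC samples 2 and 3, summed to 15.2 to 21.5 and 24.5 to 26.0 FPKM, and 0 of 4 passed (limma, 2 at an unadjusted p under 0.05). Including unnamed transcripts, the endothelial sums were 28.9, 56.2 and 38.5 FPKM in the SCPs and 50.4, 42.6 and 39.6 FPKM in the RSCs, which overlap, and again 0 of 4 passed (limma, 1 at an unadjusted p under 0.05). The part of these other cells in the changes of the members was not tested.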

How the data were processed

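RNA of 3 SCP and 3 RSC samples was read with a stranded TruSeq mRNA kit as paired ends. Per the labels, the authors checked reads with FastQC 0.11.2, aligned them to rn6 with TopHat2 2.1.0 and estimated transcript levels with Cufflinks 2.2.1. The deposited tables give FPKM per transcript, and the deposited coverage (a signal per transcript) was used here only for relative depth. Transcripts whose names had become dates (77 in every table) were left out. Stray cells beyond the last column, in 3 to 13 rows per table, were cut off and the rows were kept. Cufflinks' FPKM bounds did not enclose the FPKM of abundant genes and were not used.

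FPKM of named transcripts were summed by symbol. Genes whose mean reached 1 FPKM were tested on log2(FPKM + 1) with limma 3.58.1 (R 4.3.3, trend, two-sided) over all 6 samples, and calls were made at p under 0.01. The procedure was tested on simulated data. Shares and ratios to collagen were compared by exact two-sided permutation (scipy 1.17.1). Named are all 10 members, the lists of collagen modification genes and substrates, and the cell type marker lists, given by their sums, counts and leading genes. The values of 1 marker are not reported here. Members and lists were chosen with earlier results of these data known. Alternatives covered the pseudocount, filter, scaling, variance model, replicate block, transcript handling and each sample left out. Promoters are from RefSeq (GRCr8), and levels and positions in rn6 are from the deposited tables.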

Additional observations from a re-analysis of the deposited data

How the results depend on the processing

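Of the members, Loxl3, Plod1, Plod2, Plod3 and Pcolce kept their direction and their side of the threshold under all 24 settings, though the order of the Loxl3 means would turn if unnamed transcripts at a separate locus over its last bases were counted in (looked at after seeing the data, not tested). Lox lost its call under 12 and Serpinh1 under 6. Loxl1 passed under 10 and P4ha2 under 1. Loxl2 turned from lower to higher in the RSCs with unnamed transcripts added, at 0.49, and at 0.36, 0.56 and 0.54 without SCP samples 1, 2 and 3 and 0.56, 0.42 and 0.49 without RSC samples 1, 2 and 3 (chosen after seeing the data). Dropping a 0 if its group had a sample of at least 5 FPKM gave Loxl2 -3.90, a single SCP value against 3 RSC values of 0, which passed (limma, adjusted p = 3.86e-04). The cause of the other changes was not tested.

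The number of members higher in the SCPs was 1 under median-of-ratios scaling, quantile normalization and limma without trend, where Serpinh1 did not pass, 3 with such 0 values dropped, Loxl2 among them, and 1 to 2 with a sample left out. Unnamed transcripts raised the genes higher in the SCPs to 4789, and to 4493 without SCP sample 3. The member median with unnamed transcripts fell to 0.43 without SCP sample 1. Of the collagen modification list, 1 was higher in the SCPs with a mean of at least 5 FPKM. Differences in share, RSC minus SCP in percentage points, moved with unnamed transcripts for Lox (0.983), Loxl4 (7.96), P4ha1 (20.8) and P4ha3 (-30.4), and with the highest transcript in place of the sum for Plod1 (17.9), Plod2 (-14.8), Plod3 (-3.16), P4ha1 (14.4) and P4ha3 (-31.3).

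Samples with the same replicate number did not deviate together (r = 0.044, -0.0049 and 0.026 across genes), so the numbers were not taken as pairs. With the replicate block, 2022 genes were higher in RSCs and 2253 in SCPs, and the list had 1 gene higher in the SCPs. Then 3 members were higher in the RSCs and 2 in the SCPs, and Lox did not pass (limma, unadjusted p = 0.0198, adjusted p = 0.0490). Loxl2 with unnamed transcripts and the block was at 0.49 and passed (limma, adjusted p = 0.0125). The tables hold no counts, so what depth limits could not be computed.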
